A study of Homo sapiens with 12 samples.

Results

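The SLC25A genes encode the mitochondrial carriers, the proteins that move metabolites, nucleotides, cofactors and ions across the inner mitochondrial membrane. All protein-coding genes whose symbol starts with SLC25A were taken, which gave 48 of the 20056 protein-coding genes in the gene table. Each took the transcription start site (TSS) window on its own strand nearest to its RefSeq 5′ end, if one lay within 1 kb. This gave a window to 42 of the 48 carriers, among 16726 protein-coding windows found by the same rule and 58381 windows in all. The choice used no measured value.

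The study mapped G-quadruplexes by precipitating fixed and sonicated chromatin of HEK293, an established line of human embryonic kidney cells, with the BG4 antibody. There are 3 biological replicates (BioRep1, BioRep2 and BioRep3) of this line, and each was sequenced as 3 technical ChIP libraries and 1 input that skipped the BG4 step. The inputs were not analysed here, so a read level is not corrected for copy number, mappability or open chromatin. The 9 ChIP libraries held 372030 to 846114 reads in windows, and a single read was worth 1.18 to 2.69 CPM (counts scaled to the window reads of each library).

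G-quadruplexes are stacked structures that single strands of guanine-rich DNA can fold into, and BG4 is an antibody fragment that binds them. In human cells they are mapped mostly at promoters of active genes. The carriers share a fold of 3 repeated parts that opens by turns to either side of the membrane. Some of them are made in almost every cell, such as the phosphate carrier, and others mainly in 1 or a few tissues, such as the ADP/ATP carrier of the testis. Expression was not measured in these files: the broad and restricted classes used below were assigned by hand from textbook tissue distribution.

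Of the 42 carriers with a window, 17 had a peak in all 3 lists (40.5%, 95% Wilson interval 27.0 to 55.5%), against 23.9% of all protein-coding windows. At least 1 list had a peak at 23 of them (54.8%, 39.9 to 68.8%), against 41.3% of all protein-coding windows. By list, 17 carriers had a peak in BioRep1, 22 in BioRep2 and 22 in BioRep3. These are 40.5%, 52.4% and 52.4% of the 42, against 25.3%, 35.5% and 38.5% of all protein-coding windows in the same 3 lists. No test was made of these shares, since the set was chosen with results of these data known. All intervals cover counting error only.

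Read levels were higher as well. The median carrier window held 43.7 ± 1.67 CPM (SD, n = 3 biological replicates), against 23.4 ± 0.67 CPM for all protein-coding windows, and 28 of the 42 carriers lay above that protein-coding median. In a bulk assay, binding in more cells and more binding per cell cannot be told apart. Every window is 400 bp long, so levels are per the same length, but without the inputs a difference between genes can also hold copy number, mappability or open chromatin, whose part was not tested.

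**Figure D1:**
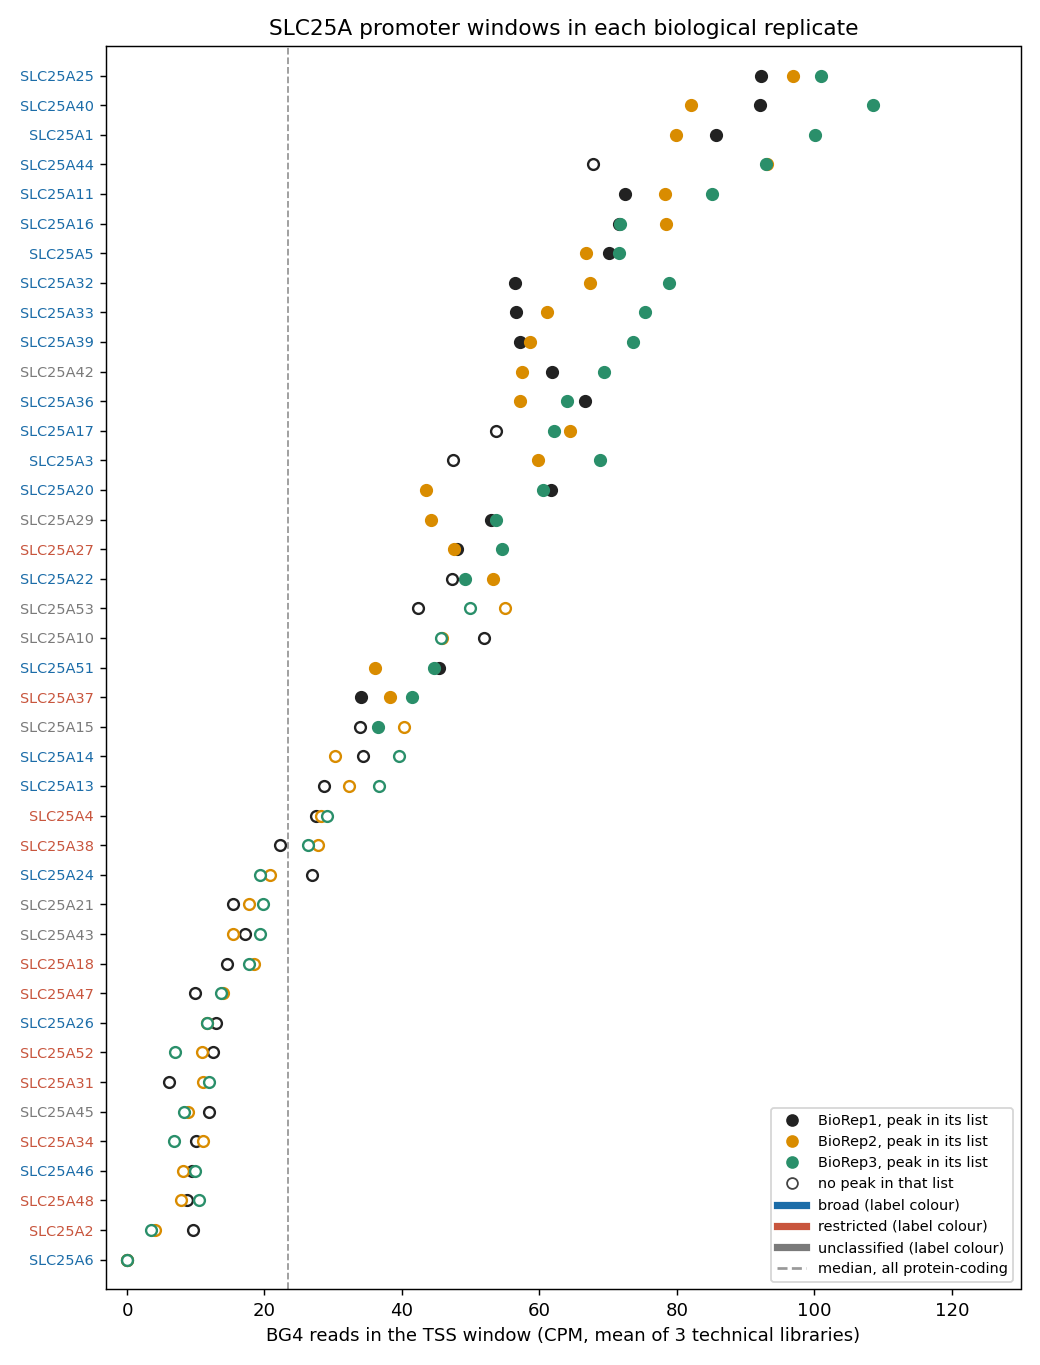
BG4 reads (CPM, x axis) in the TSS windows of 41 SLC25A carriers, ordered down the page by their mean, with 1 point for each biological replicate as the mean of its 3 technical libraries. Filled points have a peak in that replicate's list, open points have none, label colours give the expression class, and the dashed line is the median of all protein-coding windows (23.4 CPM). The means drawn run from 0 CPM at SLC25A6 to 96.7 CPM at SLC25A25.

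Promoter sequences were also searched for G-quadruplex motifs. The sequences below are the 250 bases before the RefSeq start (GRCh38.p14) of 4 carriers with a peak in all 3 lists. They are the 2 with the highest level among those with a RefSeq promoter that hold a G-quadruplex motif and the 2 with the highest level among those that do not. The motif searched was 4 runs of GGG or longer, or of CCC or longer for the other strand, with gaps of 1 to 7 bases, and capitals mark it. All 4 are read 5′ to 3′ on the strand of the gene.

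SLC25A1 (chr22:19178737-19178986, minus strand): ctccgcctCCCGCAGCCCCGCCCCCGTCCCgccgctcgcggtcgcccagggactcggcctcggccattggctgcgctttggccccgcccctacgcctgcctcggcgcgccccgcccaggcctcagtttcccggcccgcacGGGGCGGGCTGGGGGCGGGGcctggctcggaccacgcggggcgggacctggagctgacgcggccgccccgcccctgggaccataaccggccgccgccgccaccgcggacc

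SLC25A5 (chrX:119468194-119468443, plus strand): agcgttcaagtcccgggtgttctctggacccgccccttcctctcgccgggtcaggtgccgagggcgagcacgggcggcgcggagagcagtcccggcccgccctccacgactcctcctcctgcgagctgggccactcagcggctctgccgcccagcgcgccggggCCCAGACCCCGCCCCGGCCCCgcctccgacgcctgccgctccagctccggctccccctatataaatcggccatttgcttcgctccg

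SLC25A25 (chr9:128067982-128068231, plus strand): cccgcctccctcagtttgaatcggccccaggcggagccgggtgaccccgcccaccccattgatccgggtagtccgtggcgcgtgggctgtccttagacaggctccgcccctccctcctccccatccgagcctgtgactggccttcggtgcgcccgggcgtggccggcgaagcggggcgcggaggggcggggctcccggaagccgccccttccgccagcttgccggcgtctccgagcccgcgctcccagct

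SLC25A40 (chr7:87876361-87876610, minus strand): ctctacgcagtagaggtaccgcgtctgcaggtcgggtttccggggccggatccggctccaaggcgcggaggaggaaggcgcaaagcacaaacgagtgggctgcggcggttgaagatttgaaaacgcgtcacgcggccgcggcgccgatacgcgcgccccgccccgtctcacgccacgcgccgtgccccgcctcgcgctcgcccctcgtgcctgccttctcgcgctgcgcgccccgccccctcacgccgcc

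The SLC25A1 promoter holds a motif on each strand, 1 from -242 to -221 and 1 from -110 to -91, in bases from the start. SLC25A5 holds 1, on the strand opposite to the gene, from -86 to -66. SLC25A25 and SLC25A40 hold none in this window, although 76.3% and 71.3% of the 300 bases around their starts are G or C. No match says only that these letters are absent there.

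The carriers of cofactors and nucleotides are the largest role group. Of the 13 with a window, 10 had a peak in all 3 lists, beside 23.9% of all protein-coding windows, and their median level was 61.7 ± 6.69 CPM. The group was drawn up by hand and its share was not tested. Most of its members are also in the broad class used below, so role and class cannot be told apart here. SLC25A40 and SLC25A39 are close relatives linked to the import of glutathione into mitochondria. SLC25A40 (ENSG00000075303.12, chr7:87876158-87876557) had 86.1, 78.0 and 112 CPM in BioRep1, 97.1, 75.6 and 73.6 CPM in BioRep2 and 118, 106 and 101 CPM in BioRep3. SLC25A39 had 56.4, 53.8 and 61.6 CPM in BioRep1, 55.5, 59.1 and 61.1 CPM in BioRep2 and 63.9, 76.1 and 80.9 CPM in BioRep3. SLC25A40 was higher than SLC25A39 in 9 of 9 libraries, by 0.56 ± 0.10 in log2 CPM (SD, n = 3), and both had a peak in all 3 lists. The SLC25A40 window overlaps that of DBF4 on the other strand by 259 bp, so both genes count the same reads there.

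SLC25A33 and SLC25A36 both carry pyrimidine nucleotides. SLC25A33 had 56.4, 64.5 and 48.9 CPM in BioRep1, 65.9, 57.9 and 59.5 CPM in BioRep2 and 88.8, 64.6 and 72.4 CPM in BioRep3. SLC25A36 had 61.0, 75.3 and 63.4 CPM in BioRep1, 53.8, 42.5 and 75.2 CPM in BioRep2 and 68.6, 56.0 and 67.4 CPM in BioRep3. Their difference of 0.04 ± 0.24 in log2 CPM was smaller than its spread over replicates, and SLC25A33 was the higher in 5 of 9 libraries. Both had a peak in all 3 lists.

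SLC25A16 and SLC25A42 are related carriers, and SLC25A42 is known to move coenzyme A. SLC25A16 had 53.2, 72.6 and 88.8 CPM in BioRep1, 79.8, 80.4 and 75.2 CPM in BioRep2 and 67.0, 68.9 and 79.2 CPM in BioRep3. SLC25A42 had 53.2, 83.3 and 48.9 CPM in BioRep1, 45.1, 56.7 and 70.5 CPM in BioRep2 and 65.5, 60.3 and 82.6 CPM in BioRep3. The difference was 0.25 ± 0.21 in log2 CPM, with SLC25A16 higher in 6 of 9 libraries. At SLC25A42 the peaks lay upstream in all 3 lists: relative to the TSS, their near edges were at -66 to -34 bp and their far edges at -505 to -439 bp.

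SLC25A51 and SLC25A52 both carry NAD+, and SLC25A52 is the restricted member of the pair. SLC25A51 had 47.0, 40.3 and 48.9 CPM in BioRep1, 29.5, 41.4 and 37.6 CPM in BioRep2 and 48.3, 40.2 and 45.5 CPM in BioRep3. SLC25A52 had 14.1, 10.8 and 12.7 CPM in BioRep1, 8.67, 8.27 and 15.7 CPM in BioRep2 and 6.23, 11.5 and 3.37 CPM in BioRep3. The libraries of the pair did not overlap, and SLC25A51 was higher by 2.03 ± 0.52 in log2 CPM. SLC25A51 had a peak in all 3 lists and SLC25A52 in none.

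The remaining carriers of this group were SLC25A32, SLC25A20, SLC25A17 and SLC25A26. SLC25A32, which takes folate and FAD into mitochondria, had 67.6 ± 11.2 CPM and SLC25A20, the acylcarnitine carrier of fatty acid oxidation, 55.2 ± 10.2 CPM, both with a peak in all 3 lists. SLC25A17, which serves peroxisomes rather than mitochondria, had 60.1 ± 5.63 CPM and a peak in BioRep2 and BioRep3. SLC25A26, the S-adenosylmethionine carrier, had 12.1 ± 0.78 CPM and no peak. Its window lies 87132 bp from the nearest start in the RefSeq promoter table, and at its starts in that table BioRep2 and BioRep3 had peaks.

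Among carriers of tri- and dicarboxylates, 2 of 4 had a peak in all 3 lists (50%, 15.0 to 85.0%), beside 23.9% of all protein-coding windows. SLC25A1, the citrate carrier that supplies the cytosol for lipid synthesis (ENSG00000100075.9, chr22:19178631-19179030), had 98.6, 80.6 and 77.9 CPM in BioRep1, 102, 73.3 and 64.2 CPM in BioRep2 and 98.2, 87.6 and 115 CPM in BioRep3. All 9 libraries lay above the protein-coding median, and the replicates overlapped. SLC25A11, the oxoglutarate carrier of the malate-aspartate shuttle, had 78.7 ± 6.35 CPM and a peak in all 3 lists. SLC25A10, the dicarboxylate carrier, had 47.8 ± 3.54 CPM and a single peak of 23 bp in BioRep2. SLC25A21, the oxodicarboxylate carrier, had 17.6 ± 2.19 CPM and no peak in its window. BioRep3 had a peak within 200 bp of the RefSeq start of SLC25A21, which lies 260 bp from the window's TSS.

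The 4 ADP/ATP carriers exchange ADP for ATP across the inner membrane and differ in where they are made. SLC25A5, the form of proliferating cells, had 62.6, 86.0 and 61.6 CPM in BioRep1, 64.2, 72.1 and 64.2 CPM in BioRep2 and 67.0, 71.8 and 75.8 CPM in BioRep3. SLC25A4, the form of heart and skeletal muscle, had 28.2, 16.1 and 38.1 CPM in BioRep1, 26.0, 17.7 and 40.7 CPM in BioRep2 and 31.2, 25.8 and 30.3 CPM in BioRep3. SLC25A31, the testis form, had 4.70, 8.06 and 5.44 CPM in BioRep1, 10.4, 11.8 and 11.0 CPM in BioRep2 and 12.5, 10.1 and 13.5 CPM in BioRep3. These 3 genes did not overlap in any pair of libraries, and SLC25A5 alone among them had peaks, in all 3 lists. SLC25A5 exceeded SLC25A4 by 1.32 ± 0.06 and SLC25A31 by 2.77 ± 0.49 in log2 CPM (SD, n = 3), each in 9 of 9 libraries.

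SLC25A6, the other widely made ADP/ATP carrier (ENSG00000169100.13, chrX:1392525-1392924), had 0 reads in all 9 libraries. The floor of 3 reads was 3.55 to 8.06 CPM per library. The gene lies in the pseudoautosomal region at the tip of chromosome X, a stretch that chromosome Y carries too. There the first 35 windows of chromosome X, 15 of them protein-coding, held no read in any library, so the 0 at SLC25A6 does not measure BG4 signal at that promoter. Without SLC25A6, the share of carriers with a peak in all 3 lists was 41.5% and the median level 44.9 CPM.

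The phosphate and ATP-Mg carriers move phosphate alone or in exchange for ATP-Mg. SLC25A25, a calcium-regulated ATP-Mg carrier (ENSG00000148339.12, chr9:128068002-128068401), had 83.0, 105 and 88.8 CPM in BioRep1, 116, 85.1 and 89.3 CPM in BioRep2 and 101, 101 and 101 CPM in BioRep3. Its relative SLC25A24 had 25.0, 32.3 and 23.6 CPM in BioRep1, 29.5, 14.2 and 18.8 CPM in BioRep2 and 12.5, 28.7 and 16.8 CPM in BioRep3. The libraries did not overlap: SLC25A25 was higher by 2.12 ± 0.34 in log2 CPM, with a peak in all 3 lists, against none at SLC25A24. The TSS of the SLC25A24 window lies 506 bp from the nearest start in the RefSeq promoter table. The SLC25A25 window shares 395 bp with that of NAIF1 on the other strand, so it is nearly the same measurement as NAIF1. SLC25A3, the main phosphate carrier, had 58.7 ± 10.7 CPM and a peak in BioRep2 and BioRep3.

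Of the 8 amino acid carriers with a window, 1 had a peak in all 3 lists (12.5%, 2.24 to 47.1%), beside 23.9% of all protein-coding windows. At least 1 list had a peak at 4 of them (50%, 21.5 to 78.5%), beside 41.3%. These shares were not tested. SLC25A44, which carries branched-chain amino acids (ENSG00000160785.13, chr1:156193733-156194132), was the highest carrier without a BioRep1 peak. It had 54.8, 67.2 and 81.6 CPM in BioRep1, 83.2, 100.5 and 95.6 CPM in BioRep2 and 95.1, 86.2 and 97.7 CPM in BioRep3. All BioRep1 libraries were lower than all others. Its BioRep1 mean of 67.8 CPM was still above that of 10 carriers that had a BioRep1 peak, such as SLC25A37 at 34.0 CPM.

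SLC25A22 and SLC25A18 are the 2 glutamate carriers, and SLC25A18 is the restricted one. SLC25A22 had 39.1, 53.8 and 48.9 CPM in BioRep1, 57.2, 46.1 and 56.4 CPM in BioRep2 and 46.8, 50.3 and 50.5 CPM in BioRep3. SLC25A18 had 15.7, 13.4 and 14.5 CPM in BioRep1, 17.3, 17.7 and 20.4 CPM in BioRep2 and 24.9, 11.5 and 16.8 CPM in BioRep3. The libraries did not overlap, with SLC25A22 higher by 1.53 ± 0.09 in log2 CPM and peaks in BioRep2 and BioRep3, against none at SLC25A18.

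SLC25A15 and SLC25A2 carry ornithine, SLC25A15 as part of the urea cycle. SLC25A15 had 40.7, 43.0 and 18.1 CPM in BioRep1, 57.2, 26.0 and 37.6 CPM in BioRep2 and 43.6, 37.3 and 28.6 CPM in BioRep3. SLC25A2 had 6.26, 13.4 and 9.06 CPM in BioRep1, 6.94, 3.55 and 1.57 CPM in BioRep2 and 1.56, 7.18 and 1.68 CPM in BioRep3, on 1 to 5 reads per library. SLC25A15 was higher by 2.69 ± 0.88 in log2 CPM, and the size of this difference rests on those few reads. SLC25A15 had a peak in BioRep3 and SLC25A2 had none.

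SLC25A29, a carrier of basic amino acids, had 50.3 ± 5.27 CPM and was the amino acid carrier with a peak in all 3 lists. SLC25A13 (citrin), an aspartate-glutamate carrier, had 32.9, 29.6 and 23.6 CPM in BioRep1, 24.3, 36.6 and 36.0 CPM in BioRep2 and 37.4, 38.8 and 33.7 CPM in BioRep3, with no peak. SLC25A38, the glycine carrier needed for haem synthesis in red cell precursors, had 25.5 ± 2.92 CPM and no peak.

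SLC25A37 (mitoferrin-1) brings iron into mitochondria, above all in red cell precursors. It had 23.5, 34.9 and 43.5 CPM in BioRep1, 41.6, 24.8 and 48.6 CPM in BioRep2 and 31.2, 34.5 and 59.0 CPM in BioRep3, with a peak of 53 to 170 bp in each list. Of the carriers with a peak in all 3 lists it had the lowest level, and 1.63% of the 3992 protein-coding windows with a peak in all 3 lists were at or below it. SLC25A27, the uncoupling-like carrier of the brain known as UCP4, had 50.1 ± 3.92 CPM and a peak in all 3 lists. The related SLC25A14, which was classed as broad while SLC25A27 was classed as restricted, had 34.7 ± 4.73 CPM and none.

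None of the 7 orphan or other carriers with a window had a peak in any list (0%, 0 to 35.4%). Beside this, 41.3% of all protein-coding windows had a peak in at least 1 list and 23.9% in all 3. The share was not tested. Only SLC25A46 of this group is in the broad class. The median of these 7 carriers was 10.5 ± 0.54 CPM. SLC25A46, an outer membrane protein of mitochondrial dynamics, had 9.17 ± 0.92 CPM, SLC25A47, a carrier of the liver, 12.6 ± 2.26 CPM and SLC25A34 9.35 ± 2.20 CPM. SLC25A48, linked to choline import, had 12.5, 8.06 and 5.44 CPM in BioRep1, 8.67, 7.09 and 7.83 CPM in BioRep2 and 12.5, 7.18 and 11.8 CPM in BioRep3. SLC25A43 had 17.4 ± 1.97 CPM and SLC25A45 9.71 ± 2.0 CPM. The SLC25A45 window lies 1055 bp from the nearest start in the RefSeq promoter table, where BioRep3 had a peak within 200 bp. BioRep3 also had a peak at another RefSeq start of SLC25A48, 255461 bp from its window. SLC25A53 stood apart from the others of this group with 49.0 ± 6.36 CPM. Only 2 of the 9816 protein-coding windows without a peak, SLC25A53 included, were at or above its level, and its nearest peaks lay 8959 to 9106 bp away.

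The median window of broadly made carriers had a higher read level than that of tissue-restricted carriers in all 9 libraries. A peak in all 3 lists was present at 13 of 23 broad carriers (56.5%, 36.8 to 74.4%) and at 2 of 11 restricted carriers (18.2%, 5.14 to 47.7%), beside 23.9% of all protein-coding windows. At least 1 list had a peak at 17 broad and at 2 restricted carriers (73.9% and 18.2%), beside 41.3% of all protein-coding windows. The 2 restricted ones were SLC25A27 and SLC25A37. The other restricted carriers with a window were SLC25A2, SLC25A4, SLC25A18, SLC25A31, SLC25A34, SLC25A38, SLC25A47, SLC25A48 and SLC25A52. With only peaks of at least their list's median length, the restricted count in all 3 lists was 0 of 11, the broad one 9 of 23, and the share of all 42 carriers 23.8%, beside 14.0% of all protein-coding windows. The 4 broad carriers with peaks in 2 lists were SLC25A44, SLC25A17, SLC25A3 and SLC25A22. Each lacked the BioRep1 peak only. Over all protein-coding windows, 94.2% of the 4239 with a BioRep1 peak had one in all 3 lists. Windows in 2 lists therefore mostly lack the BioRep1 peak, so this is not particular to broad carriers. Of the 8 unclassified carriers, 2 had a peak in all 3 lists (SLC25A42 and SLC25A29) and 2 in 1 list (SLC25A10 and SLC25A15). The others were SLC25A21, SLC25A43, SLC25A45 and SLC25A53. Every carrier with a window that is neither restricted nor unclassified is broad.

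The median level was 61.7 ± 6.30 CPM over broad carriers and 13.4 ± 0.79 CPM over restricted carriers (SD, n = 3 biological replicates). In log2 CPM the broad median exceeded the restricted median by 2.0 in BioRep1, 1.86 in BioRep2 and 2.17 in BioRep3, a mean of 2.01 ± 0.16. The difference was positive in 9 of 9 libraries, between 1.70 and 2.49. The members and classes were chosen with earlier results of these data known, and with 3 biological replicates no exact test can pass 0.05. No p is given. The unclassified carriers had a median of 40.5 ± 2.14 CPM.

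The classes overlapped gene by gene. Of the 23 broad carriers, 15 lay above SLC25A27, the highest restricted carrier, and 3 lay below the restricted median: SLC25A26, SLC25A46 and SLC25A6. SLC25A6 is the carrier without a read, and the windows of SLC25A26 and SLC25A46 lie 87132 bp and 871 bp from the nearest start in the RefSeq promoter table. No restricted carrier lay above the broad median. Below the median of all protein-coding windows were 4 broad and 7 restricted carriers. Promoter base composition moved with the class: the median share of G and C was 72.0% over 20 broad carriers and 64.0% over 9 restricted carriers with a RefSeq promoter. Its part in the difference was not tested.

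**Figure D2:**
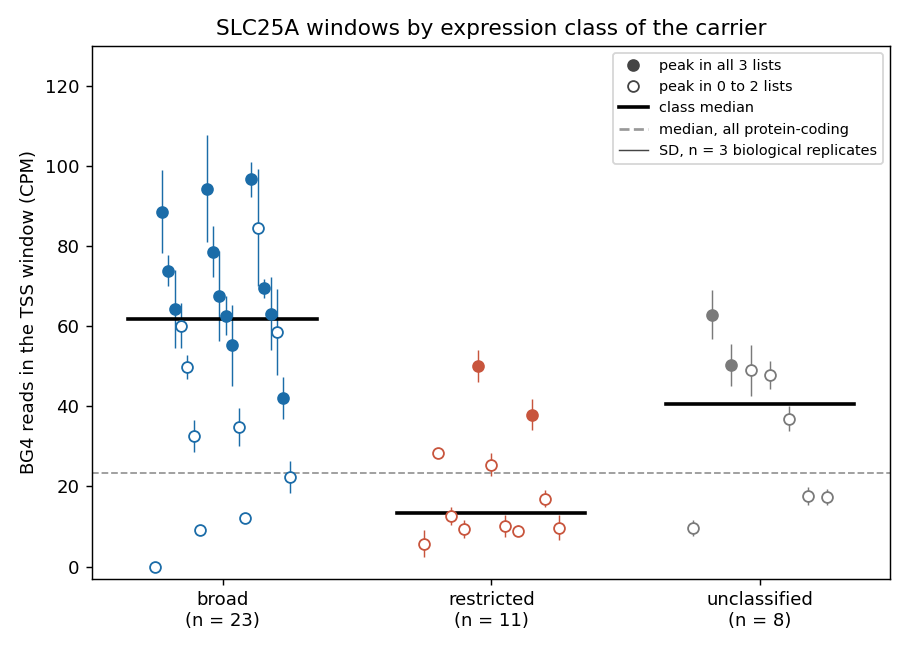
BG4 reads (CPM) in the TSS windows of broad (n = 23), restricted (n = 11) and unclassified (n = 8) carriers, each point a gene with its SD over 3 biological replicates and each thick bar the class median. Of the broad carriers, 22 are drawn. Filled points have a peak in all 3 lists. The broad median (61.7 CPM) lies above every restricted carrier, while the lowest broad carriers lie among the lowest restricted ones.

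**Figure D3:**
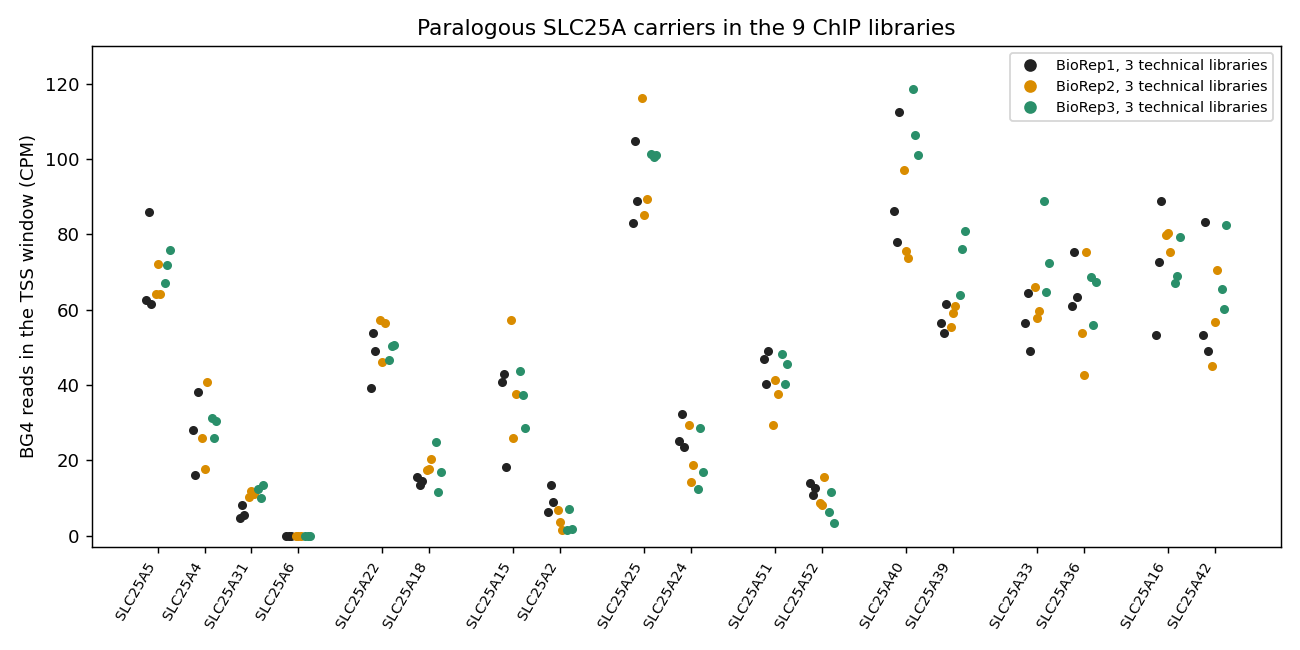
BG4 reads (CPM) in each of the 9 ChIP libraries for related carriers side by side, coloured by biological replicate. SLC25A5, SLC25A22, SLC25A51 and SLC25A25 lie apart from their relatives in every library, while SLC25A33 and SLC25A36, and SLC25A16 and SLC25A42, overlap.

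Only peaks that touch a window were counted, so their nearness to the TSS is set by that choice. The 17 carriers with a peak in all 3 lists had 58 peaks in their windows. Of these 58, 37 had their midpoint upstream of the TSS and 37 spanned it. No such count was made for other genes, and 4 of these 17 windows overlap one on the other strand. The median midpoint was at -26 bp from the TSS, with quartiles at -104 and 17.4 bp. Their lengths ran from 22 to 539 bp with a median of 233.5 bp. SLC25A20 and SLC25A51 had their peaks at different places in the 3 lists: the 92 bp peak of BioRep1 and the 22 bp peak of BioRep2 at SLC25A20 did not touch, nor did the 34 bp and 45 bp peaks of BioRep1 and BioRep2 at SLC25A51.

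**Figure D4:**
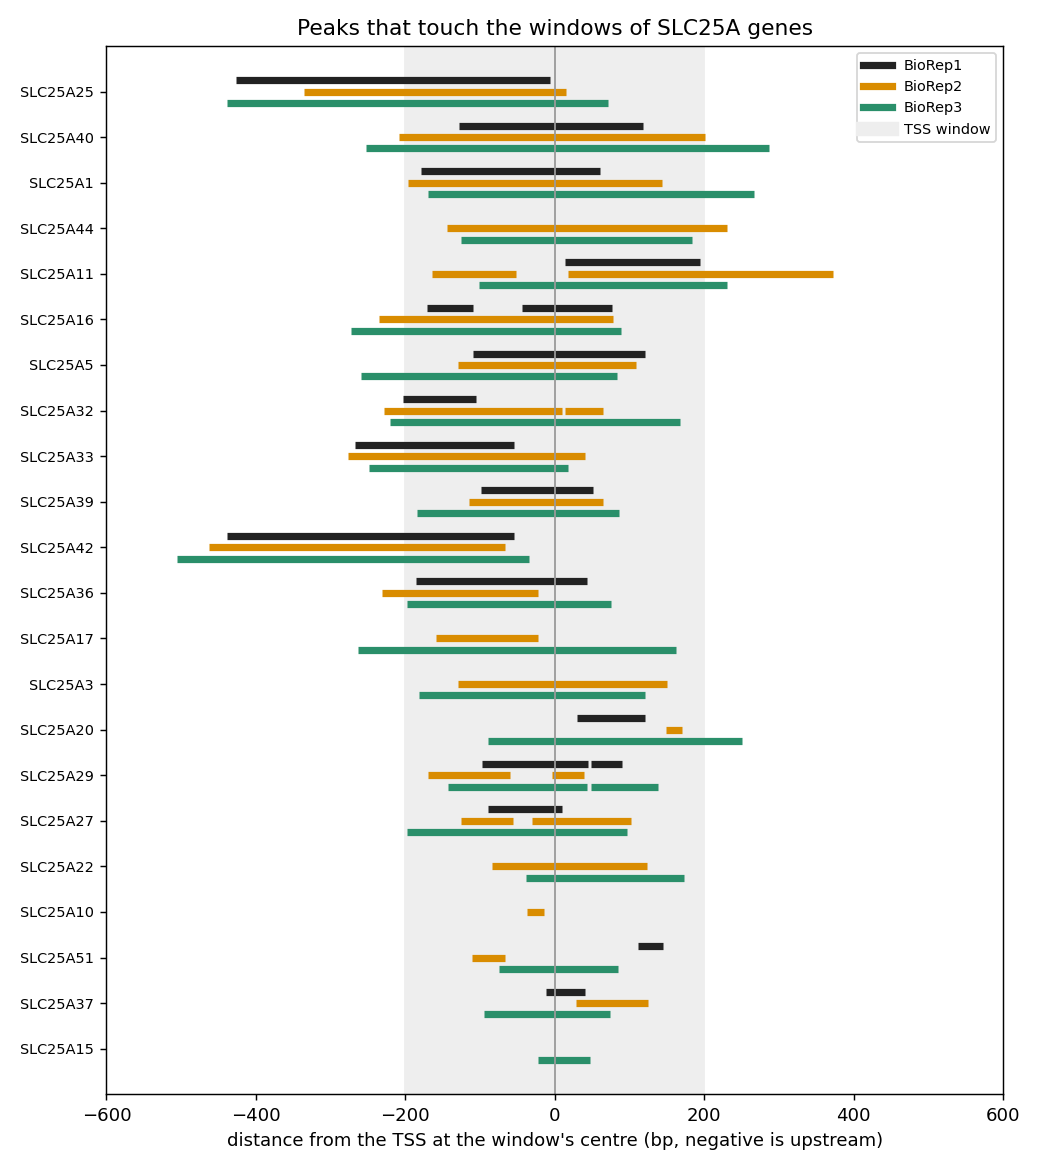
Position of each peak (bp from the TSS at the window's centre, negative is upstream, in the direction of transcription) at 22 of the carriers with a peak in at least 1 list, with 1 bar colour for each biological replicate and the 400 bp window shaded. Most bars span or touch the TSS, and the bars of SLC25A42 lie wholly upstream.

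Of the 42 windows, 5 overlap a window of a gene on the other strand: those of SLC25A25 with NAIF1, SLC25A40 with DBF4, SLC25A11 with RNF167, SLC25A27 with CYP39A1 and SLC25A48 with CXCL14. Of these 5, 4 had a peak in all 3 lists, against 44.3% of 3181 overlapping protein-coding windows. Of the 37 carrier windows that overlap none, 13 (35.1%) had a peak in all 3 lists, against 19.1% of 13545 such protein-coding windows. Their median level was 38.1 ± 3.57 CPM, against 18.1 CPM over all protein-coding windows of that kind.

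A G-quadruplex motif was present in 11 of the 37 carrier promoters with a RefSeq sequence (29.7%, 17.5 to 45.8%), against 30.6% of 13594 protein-coding promoters of the same 300 bases, 250 before to 50 after the start. Both strands were searched, and overlapping matches on a strand counted once. The 11 were SLC25A1, SLC25A17, SLC25A20, SLC25A24, SLC25A29, SLC25A3, SLC25A43, SLC25A47, SLC25A48, SLC25A5 and SLC25A51. The motif lay on the gene's strand in 3 of them, on the opposite strand in 6 and on both in 2. Of carriers with a peak in all 3 lists, 5 of 13 held it (38.5%), against 38.1% of all such protein-coding windows. Of carriers with no peak, 4 of 18 held it (22.2%), against 27.4% of all such windows. Both shares were near their background.

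The motif was held by 7 of 20 broad promoters and 2 of 9 restricted promoters. Across the 37 promoters, the share of G and C and the level had a Spearman's rho of 0.36, against 0.44 over all 13594. This is a description across genes, which share libraries and depth. The 37 include SLC25A6, whose 0 CPM does not measure BG4 signal. They also include SLC25A26, SLC25A45 and SLC25A46, whose promoters start 87132, 1055 and 871 bp from the TSS of their windows. SLC25A53, at 49.7% G and C, had 49.0 CPM and SLC25A44, at 58.3%, had 84.6 CPM.

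**Figure D5:**
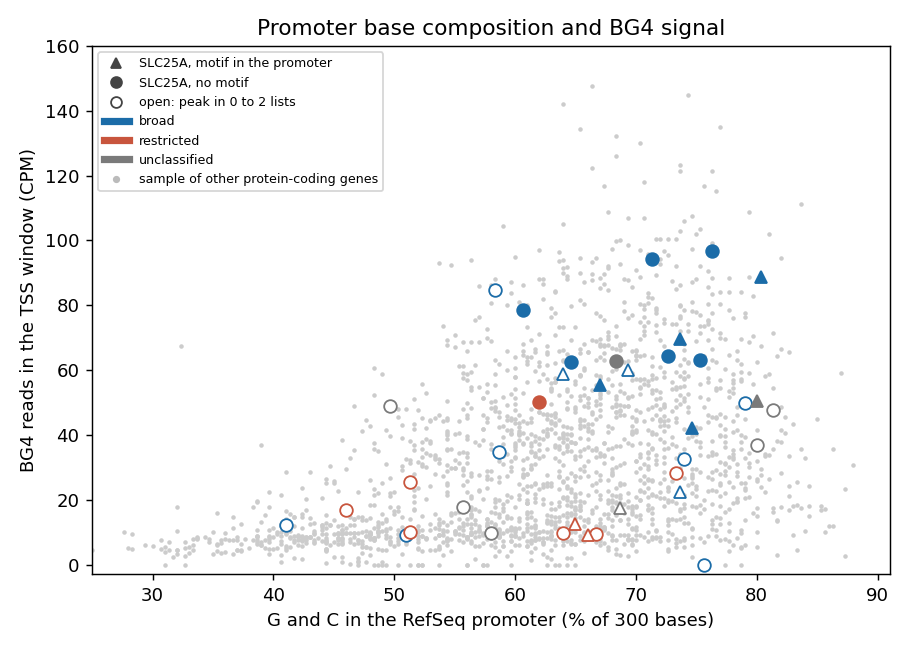
Share of G and C in the 300-base RefSeq promoter (%, x axis) against BG4 reads in the TSS window (CPM, y axis) for 37 carriers, over a sample of 2000 other protein-coding genes in grey, of which 2 lie above the plotted range. Triangles hold a G-quadruplex motif and filled symbols have a peak in all 3 lists. SLC25A6 is drawn at 0 CPM, which does not measure BG4 signal, and SLC25A26 with a promoter 87132 bp from its window. High carriers with a motif (SLC25A1, 88.6 CPM) and without one (SLC25A25, 96.7 CPM) stand side by side.

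The 6 carriers to which the rule gave no window were SLC25A12, SLC25A23, SLC25A28, SLC25A30, SLC25A35 and SLC25A41. SLC25A28 (mitoferrin-2), the widely made relative of SLC25A37, had peaks in all 3 lists within 200 bp of its start in the RefSeq promoter table. The nearest window to that start on the same strand, ENSG00000155287.10 at 170 bp, held 119.9 ± 12.9 CPM and a peak in all 3 lists. The rule looked near the outermost end of the gene, did not reach this window and gave it no gene name. Its level is therefore outside the shares and medians of the carriers. SLC25A12 (aralar), the relative of SLC25A13, had a peak within 200 bp of its start in BioRep3 alone. SLC25A23, an ATP-Mg carrier, had none there: its nearest peaks lay 398 to 436 bp away. The RefSeq tables used here gave no strand for SLC25A30, SLC25A35 and SLC25A41, so no peak was assigned to their starts. SLC25A35 got no window because both of its ends reached a window. Read on the minus strand, its end lay 57 bp from the window ENSG00000125434.10, with 77.1 CPM, and inside a peak in all 3 lists. Read on the plus strand, the window ENSG00000108961.13 lay 734 bp away with 41.7 CPM, and the nearest peaks 7444 to 7593 bp away. SLC25A30 and SLC25A41 had no window within 1 kb of either end.

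Counted at RefSeq starts instead of windows, 13 of 40 carriers had a peak within 200 bp in all 3 lists (32.5%, 20.1 to 48.0%), against 28.5% of 15843 protein-coding genes. At least 1 list had such a peak at 25 of the 40 (62.5%), against 47.7%. By this count the share in all 3 lists was nearer to the background than by windows. SLC25A16, SLC25A32 and SLC25A37, which had peaks in all 3 lists at their windows, have no entry in the promoter table and are outside this count.

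The 3 biological replicates were compared window by window with edgeR's quasi-likelihood test, in which the technical libraries are the units, so that a p measures only the spread between them. Of 17499 windows tested, 0 differed between replicates at an adjusted p below 0.05 (0%), with 1379 at an unadjusted p below 0.05 (7.88%). DESeq2's likelihood ratio test, run on 56196 windows without a filter on low counts, called 0, with 807 of the 56196 at an unadjusted p below 0.05. The filter of the edgeR fit on low counts kept 32 of the 42 carriers, and the lowest adjusted p among them was 0.525 (edgeR, Benjamini-Hochberg). Unadjusted p was below 0.05 at 4 of these 32, among them SLC25A20, SLC25A40 and SLC25A44. SLC25A20, which had the lowest, averaged 61.8 CPM in BioRep1, 43.5 CPM in BioRep2 and 60.5 CPM in BioRep3.

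Genes that work beside the carriers were set next to them from lists drawn up by hand, with 23.9% of all protein-coding windows in all 3 lists and 41.3% in at least 1 as the background. Of 5 relatives of the SLC25 family with other symbols, 3 had a peak in all 3 lists: UCP2 with 59.1 ± 4.30 CPM, and MTCH1 and MTCH2, carrier-like proteins of the outer membrane, with 50.4 ± 2.87 and 66.0 ± 10.2 CPM. UCP1, the uncoupling protein of brown fat, and UCP3, that of muscle, had 7.60 ± 1.73 and 9.34 ± 0.68 CPM and no peak. All 12 genes of the pathway that imports carriers through the TOM and TIM22 complexes had a window above the protein-coding median. Of the 12, 6 had a peak in all 3 lists, led by TOMM20 with 94.1 ± 9.97 CPM, and 1, TIMM8A, had none. Of 7 pyruvate carrier and sideroflexin genes, 5 had a window and 2 a peak in all 3 lists: MPC1 with 110.3 ± 3.20 CPM and SFXN2 with 126.7 ± 16.9 CPM. Of 4 outer membrane channel genes, 3 had a window and 1, VDAC3 with 57.6 ± 2.22 CPM, a peak in all 3 lists. These lists are small, and nothing is drawn from their shares.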

How the data were processed

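BG4 ChIP libraries of HEK293 were used as deposited: 3 biological replicates with 3 technical libraries each, grouped by the sample titles. The deposited tables hold raw read counts in windows of 400 bp centred on GENCODE release 28 TSSs (hg38), per the labels. The peak lists, 1 for each biological replicate over its technical libraries, give start and end only. Tools named in the submitters' processing notes are cutadapt, BWA, Picard, MACS2 and bedtools. Versions, peak thresholds and the handling of duplicates were not given in the sources used here.

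Windows carry Ensembl IDs, so they were matched by strand and position (within 1000 bp) to RefSeq genes of GRCh38.p14. Strand came from the RefSeq promoter table, or from whichever gene end was reached. Counts were scaled to CPM over the reads in windows, averaged over technical libraries and given as mean ± SD over 3 biological replicates. Log2 CPM used a prior of 1. A peak counted from 1 bp of overlap. Shares have 95% Wilson intervals. The members, classes and lists were chosen with earlier results of these data known.

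The counts were tested with edgeR 4.0.16 in R 4.3.3 (quasi-likelihood, 2 df, TMM, filterByExpr, robust, Benjamini-Hochberg at 0.05), checked on simulated data, with DESeq2 1.42.0 as an alternative. Python 3.11.15 with pandas 2.3.3, numpy 2.4.6 and scipy 1.17.1 made the other values. Nothing in the labels says that the biological replicates were separate cultures. Values in every library are given for the 5 highest and 3 lowest carriers, the ADP/ATP carriers and the pairs of relatives with windows, and the mean, SD and lists for the others, except for 1 member that is not reported here and still counts in the shares and medians. A few other members are singled out after their values were seen: SLC25A37 for its low level with peaks, and SLC25A53 for its high level without one.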

Additional observations from a re-analysis of the deposited data

How the results depend on the processing

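The broad median stayed above the restricted median, and the carriers' peak share above that of all protein-coding windows, under every alternative run. The share of carriers with a peak in all 3 lists was 23.8% with only peaks of at least their list's median length (14.0% of all protein-coding windows), and the restricted share was then 0%. The median level moved to 47.7 CPM with windows within 200 bp and to 38.1 CPM without windows that overlap another. Leaving out a technical or biological replicate gave 42.8 to 45.4 CPM. The broad median exceeded the restricted median by 1.76 in log2 CPM with a prior of 5 and by 2.19 with SLC25A4, SLC25A37 and SLC25A38 taken as broad. With unclassified carriers taken as restricted it was 1.61, and as broad 1.83. Leaving out replicates gave 1.93 to 2.08. Windows that differed between biological replicates numbered 25 without the filter on low counts, none of them a carrier, and 0 to 1 with a technical number left out. Promoter motifs with runs of GG in place of GGG covered 97.3% of carriers (86.2 to 99.5%) and 89.7% of all promoters. With GGG these were 29.7% (17.5 to 45.8%) and 30.6%. The background lay within the carriers' interval in both settings. The causes were not tested.

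The titles number the technical libraries 1 to 3 in every biological replicate. Libraries with the same number did not visibly deviate together, with r of -0.0146 to 0.0263, against -0.0207 to 0.0229 for other numbers. Of 9 libraries, 3 correlated best with their own number. Pairing by number was thus not seen, but counting error at this depth can hide a shared deviation. With the technical number as a replicate block, 0 windows differed. Low windows are limited by depth: SLC25A2 rests on 29 reads over 9 libraries. The RefSeq-start count and the values without SLC25A6 were added after seeing the data.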
